A study of Mus musculus with 29 samples.

Results

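The genes described here are 44 DNA repair genes of 7 pathways, followed in the RNA of mouse hematopoietic stem cells (HSCs) by pathway, age and genotype. They were taken by symbol from a list of named repair genes and make up 44 of the 55376 genes in the deposited count tables. The list was drawn up with earlier results of these data known, so shares of members set against other genes only describe them. All 44 passed the filter on low counts, which kept 33690 genes. The list holds 10 genes of base excision repair, 8 of nucleotide excision repair, 2 of mismatch repair, 6 of end joining, 8 of homologous recombination, 6 of the Fanconi anemia pathway and 4 kinases of the damage response. RNA was sequenced from HSCs sorted as Lin-cKit+Sca1+CD34-Flk2-CD150+ cells of bone marrow, from mice that the labels call young or old and either WT or Gadd45KO. The paper gives the knockouts as a bred line of GADD45B knockout mice and does not describe how the allele was altered. Gadd45b is a stress-response gene. The groups hold 4 libraries each of young WT (YWT), old WT (OWT) and young knockout (YKO) and 7 of old knockout (OKO), 19 in all. The labels state neither a treatment other than age nor an age in months.

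Cells repair damaged bases by cutting out the base (base excision), bulky lesions by cutting out a stretch of the strand (nucleotide excision), and copying errors by mismatch repair. Broken DNA ends are rejoined directly by end joining or copied from the sister strand by homologous recombination, the Fanconi anemia proteins clear crosslinks between the strands, and the kinases ATM, ATR, CHK1 and CHK2 signal the damage and hold the cell cycle. Many of these genes, those of recombination, crosslink repair and the replication checkpoint in particular, are expressed most in dividing cells, and most HSCs are quiescent.

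Library totals ran from 22197555 to 77970627 counts, and the least counted member in any library had 32 counts. All 8 HSC markers checked were read in every library, among them Kit at 752 CPM (counts scaled to library size) or more and Slamf1, which encodes CD150, at 42.4 CPM or more, while Cd34, whose protein the gate excludes, was read at 66.7 to 304 CPM. Gadd45b itself was at 9.12, 17.5, 8.17 and 7.34 CPM in the 4 YWT libraries, 10.1, 10.4, 15.5 and 10.2 in OWT, 12.7, 14.3, 5.98 and 5.14 in the libraries labelled YKO, and 2.84 to 6.94 in OKO. The libraries labelled YKO1 and YKO2 thus lay within the YWT range, and only the OKO group stood below all WT libraries. YKO below means the libraries so labelled. On another measure, given below with Tdg, every library labelled knockout stood apart from every WT library. Of the summed CPM of Tdg and its pseudogene Gm9855, Gm9855 took 41.0% to 43.6% in YKO and 31.4% to 45.8% in OKO. In the WT libraries it took 3.59% to 5.75%. Y-linked genes were read above 10 CPM in 7 of the 19 libraries, spread over all 4 groups. The labels give every sample as female, whereas the paper states that both sexes were included. Sex was not part of the fit. The titles of all OWT libraries and of OKO4 to OKO7 begin with IB15 and no others do, so age in WT and this prefix cannot be told apart. The scaling factors (TMM) of OKO1, OKO2 and OKO3 were 1.83, 1.24 and 1.41, and no other library exceeded 1.22. The lowest factor was that of YWT2, 0.69. The members made up 0.155% of its counts, against 0.237% to 0.252% in the other YWT libraries. Replicates were not labelled as separate animals, so p-values measure the spread between these libraries, which may be technical.

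The members differed widely in level. Per kilobase of merged exon, Apex1, which encodes the main endonuclease at abasic sites, was highest in YWT at 111 ± 16.9 CPM per kb (SD, n = 4), although 61.7% of its exon length overlaps Pip4p1, where reads cannot be told apart without strand. Parp1, the poly(ADP-ribose) polymerase that senses strand breaks, followed at 54.2 ± 7.21 CPM per kb and Msh6, a mismatch-binding subunit, at 43.6 ± 7.28. The end-joining subunits Xrcc6 (Ku70) and Xrcc5 (Ku80) came next at 29.9 ± 4.86 and 22.5 ± 5.49 CPM per kb. At the low end stood Rad51c, a recombinase paralog, at 0.551 ± 0.0955 CPM per kb, and Lig4, the ligase of end joining, at 0.700 ± 0.112. Of the 43 neighbouring pairs in this order, 39 overlapped in the range of their 4 libraries, and the ranges were apart only between Apex1 and Parp1, Msh6 and Xrcc6, Ercc2 and Fanca, and Fancm and Lig4.

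**Figure D1:**
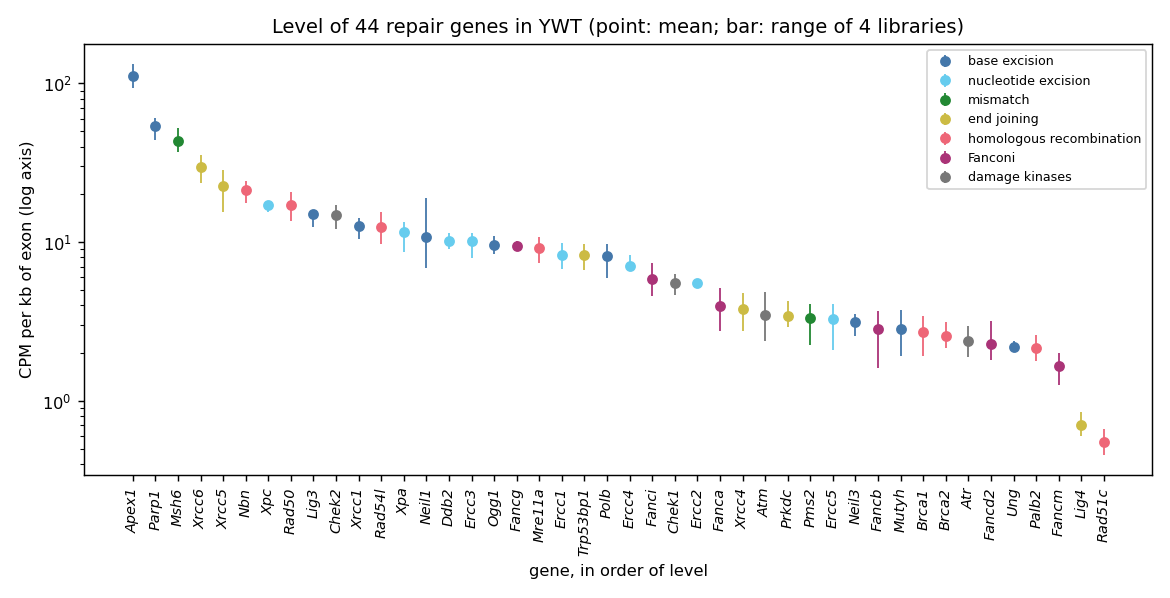
Level of the 44 repair genes in the 4 YWT libraries, in CPM per kb of merged exon on a log axis, ordered from high to low and coloured by pathway; points are means and bars the range. Apex1 (111 CPM per kb) and Rad51c (0.551 CPM per kb) mark the ends of the order.

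No member passed the edgeR test, which asked for a p under 0.05 after Benjamini-Hochberg adjustment together with a change of over 1.5 times, in any of the 4 comparisons, nor the test of a difference between the age effects of the genotypes. Because the 4 comparisons share libraries and the scaling moves all genes, the members are set below against the median of the 12363 tested genes with a mean of at least 5 CPM, called expressed genes here. Across 7 ways of scaling, filtering and fitting, the log2 median of all tested genes in OKO vs YKO ranged from 0.03 to 0.63. The distance of the members' median from that of expressed genes stayed between -0.31 and -0.30. A scaling factor shifts both of these medians nearly alike, so this steadiness does not test the difference. The members' median log2 fold change less that of expressed genes was -0.22 in OWT vs YWT, 0.19 in YKO vs YWT, -0.30 in OKO vs YKO and 0.02 in OKO vs OWT.

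In OWT vs YWT, 29 members (65.9%) had lower and 15 higher values in old WT beside 40.8% of expressed genes lower, with a median log2 fold change of -0.17 beside 0.05 for expressed genes and -0.05 for all tested genes. The pathways differed in direction. All 8 nucleotide excision genes were higher in old WT (median 0.17), whereas all 6 Fanconi genes (median -0.38) and all 4 kinases (median -0.63) were lower, as were 7 of 8 recombination genes (median -0.26). None of the 8 nucleotide excision genes reached an unadjusted p under 0.05. Of 15 other genes of that pathway, 10 were lower in old WT (median -0.06), so the direction is that of these 8 genes and not of the pathway at large. Called genes were 1 of 33690 (0.00297%), and no member was among them. At an unadjusted p under 0.05, 4 members were lower (Brca2, Atr, Chek1 and Prkdc), 9.09% of the list against 1.74% of all tested and 1.49% of expressed genes, and 0 were higher. The OWT and YWT libraries did not overlap for 5 members, all lower in OWT (Ung, Lig4, Prkdc, Brca2 and Chek1), beside 1.9% of tested genes. By DESeq2 0 members were called here. With the title prefix as a covariate, which leaves age in WT estimated through the OKO libraries alone, the members' median became -0.61 and that of expressed genes -0.43, and 6 of the 8 nucleotide excision genes were lower (median -0.14).

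In YKO vs YWT, 31 members (70.5%) had higher and 13 lower values in the libraries labelled YKO beside 53.2% of expressed genes higher, with a median log2 fold change of 0.22 beside 0.03 for expressed genes. Mismatch (median 0.40), Fanconi (0.29), base excision (0.28) and nucleotide excision genes (0.24) led, while recombination genes were centred at 0.04 and end-joining genes at -0.10. Called genes were 9 of 33690 (0.0267%) and no member was called by edgeR or DESeq2. At an unadjusted p under 0.05, Fanca was higher and Xrcc4 lower, against 1.91% and 2.68% of all tested genes in these directions. The groups did not overlap for 5 members, all higher in YKO and 4 of them in base excision repair (Ung, Xrcc1, Parp1, Lig3 and Fanca), beside 2.12% of tested and 4.26% of expressed genes. With YKO3 and YKO4 alone, the libraries in which Gadd45b lay below every YWT library, the median was 0.25 and 34 members were higher.

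In OKO vs YKO, 41 of the 44 members (93.2%) had lower values in old knockout HSCs beside 65.8% of expressed genes, with a median log2 fold change of -0.47 beside -0.18 for expressed genes. The exceptions were Polb, Xrcc4 and Trp53bp1, with log2 fold changes between 0.04 and 0.11. Fanconi genes (median -0.59), kinases (-0.59), mismatch (-0.59) and base excision genes (-0.54) were lowest, recombination genes stood at -0.44, and nucleotide excision (-0.23) and end-joining genes (-0.21) lay close to the median of expressed genes. By edgeR 434 of 33690 genes were called (1.29%) and no member was, while DESeq2 called 7 members, all lower in OKO (2.14% of tested genes called lower). At an unadjusted p under 0.05, 20 members were lower (45.5% of the list) and 0 higher, against 7.93% of all tested genes and 18% of expressed genes lower. The smallest adjusted p was that of Ung (0.0573). The groups did not overlap for 2 of the 44 members, Parp1 and Atr, both lower in OKO. Among tested genes 1.48% and among expressed genes 3.25% were lower with no overlap.

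In OKO vs OWT, 33 members had lower and 11 higher values in old knockout HSCs (75% lower) beside 84.2% of expressed genes lower, and the members' median of -0.17 lay next to -0.19 for expressed genes. The direction turned with the scaling: with upper-quartile factors 27 members were higher (median 0.03), with only genes of at least 5 CPM kept 28 were higher (0.07), and with library totals alone 32 (0.10). Within the libraries titled IB15 (OKO4 to OKO7 against OWT) 27 members were higher, with a median of 0.05. Called genes were 11 of 33690 (0.0327%), none of them a member by edgeR or DESeq2, and at an unadjusted p under 0.05 1 member was lower (Ercc2) against 2.23% of tested genes. The groups overlapped for every member, while 0.46% of tested genes were higher and 0.359% lower with no overlap.

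**Figure D2:**
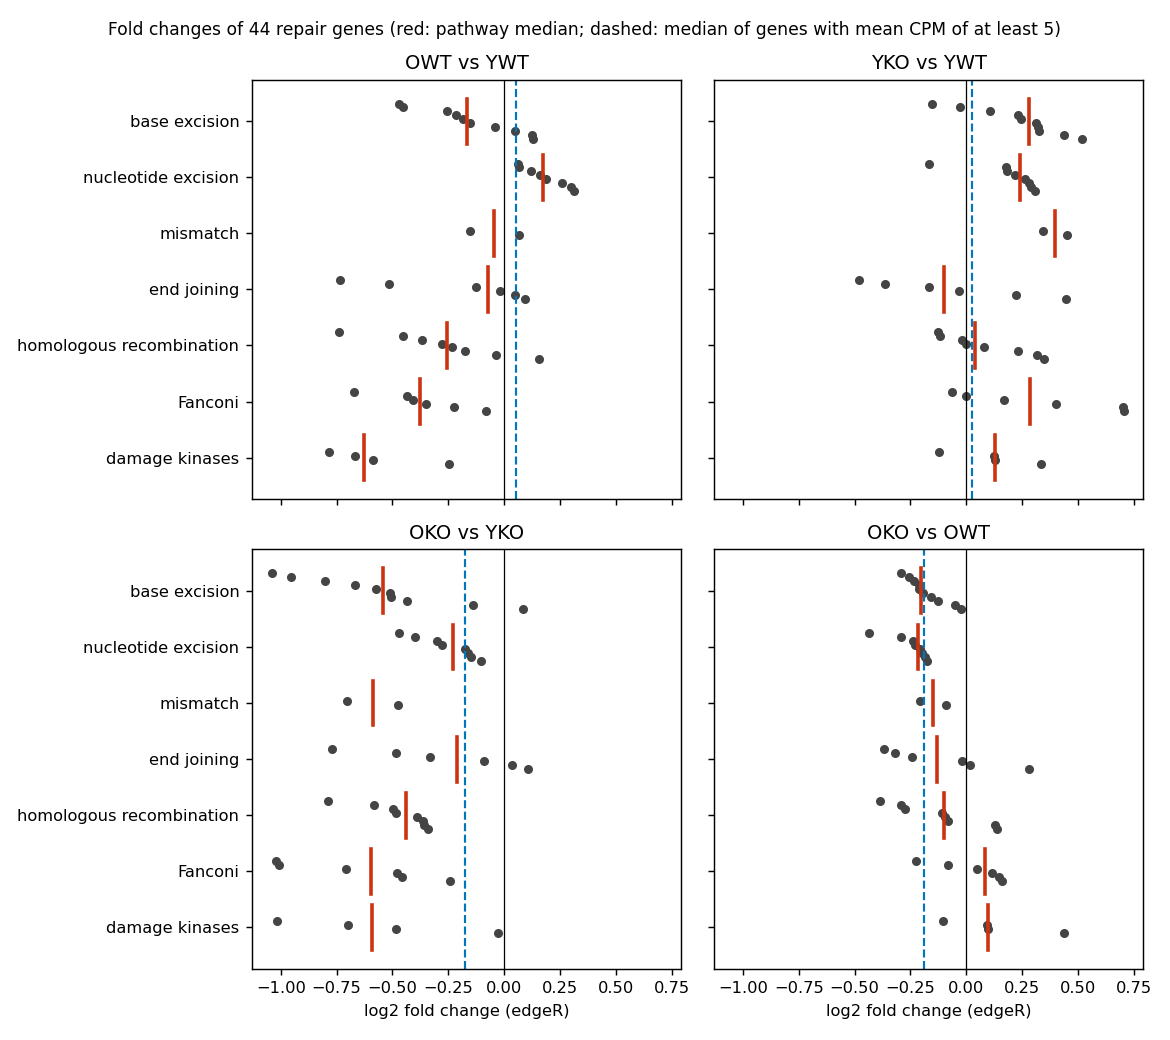
Log2 fold changes (edgeR, TMM factors) of the 44 genes by pathway in the 4 comparisons; points are genes, red bars pathway medians and the dashed line the median of the 12363 expressed genes. Nucleotide excision genes lie right of the dashed line in OWT vs YWT and around it in OKO vs YKO, while Fanconi genes and kinases lie left of it in OWT vs YWT and all but Atm do so in OKO vs YKO.

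Ung, of base excision repair, had the smallest adjusted p of all members, in OKO vs YKO. The gene (chr5:114130386-114139323, plus strand) encodes the glycosylase that removes uracil from DNA. It was read at 13.1, 11.8, 11.1 and 11.5 CPM in YWT, 7.13, 8.59, 11.1 and 7.54 in OWT, 17.1, 17.8, 16.5 and 16.8 in YKO, and between 3.70 and 17.3 (median 7.43) in OKO. The 4 YKO libraries lay close together above all WT libraries, and OKO7 fell among them while the other 6 OKO libraries stayed below 8 CPM. Its log2 fold change was -1.04 (SE 0.27) in OKO vs YKO and 0.52 (SE 0.31) in YKO vs YWT.

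Parp1 (chr1:180568924-180601254, plus strand) was at 287 ± 38.2 CPM in YWT (SD, n = 4), 258 ± 27.2 in OWT (n = 4), 388 ± 26.3 in YKO (n = 4) and 223 ± 76.5 in OKO (n = 7), a log2 fold change of -0.80 (SE 0.23, edgeR adjusted p = 0.0814) in OKO vs YKO. All 7 OKO libraries (111 to 346 CPM) were below all YKO libraries (356 to 417). Neil3, a glycosylase for oxidised bases in single-stranded DNA, ran from 4.97 to 16.7 CPM in OKO and from 16.3 to 28.2 in YKO, with only OKO2 inside the YKO range, and its log2 fold change was -0.95 (SE 0.27, adjusted p = 0.0790). Ogg1, the glycosylase for 8-oxoguanine, did not share this pattern: it was at 22.4, 19.3, 23.9 and 18.3 CPM in YWT, 27.2, 27.1, 19.2 and 18.0 in OWT, 16.9, 14.7, 23.9 and 26.8 in YKO and 10.8 to 28.7 (median 18.8) in OKO. Its lowest values were those of OKO1, OKO2 and OKO3. Of the rest, Apex1, Xrcc1 (the scaffold of the pathway) and Lig3 (its ligase) had log2 fold changes of -0.67 to -0.51 in OKO vs YKO, Mutyh and Neil1 (adenine and oxidised-base glycosylases) of -0.58 and -0.44 with wider errors, and Polb, the gap-filling polymerase, of 0.08 (SE 0.18). Lig3 and Ogg1 share 25.1% and 10.6% of their exon length with other genes.

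Nucleotide excision genes had log2 fold changes between -0.47 and 0.31 in all 4 comparisons. Xpc (chr6:91489305-91515888, minus strand), the sensor of distorted DNA, was at 95.3, 98.0, 99.7 and 85.2 CPM in YWT, 131, 142, 96.4 and 96.3 in OWT, 101, 92.1, 116 and 121 in YKO, and 72.0 to 140 (median 81.9) in OKO. OWT1 and OWT2 were the high libraries and OWT3 and OWT4 lay within the YWT range, and its log2 fold change in OWT vs YWT was 0.30 (SE 0.22). Ddb2, which finds ultraviolet lesions, had the largest value of the pathway there, 0.31 (SE 0.25). Ercc4 (XPF, a subunit of the 5' incision nuclease) was at 45.1, 44.4, 55.5 and 45.1 CPM in YWT, 69.3, 63.1, 40.9 and 42.9 in OWT, 55.7, 49.4, 61.9 and 63.6 in YKO and 33.8 to 59.3 (median 47.1) in OKO, and its groups overlapped throughout.

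The TFIIH helicases behaved less alike. Ercc3 (XPB) was at 31.5, 32.3, 28.1 and 22.4 CPM in YWT, 34.1, 35.7, 26.6 and 23.2 in OWT, 37.6, 27.4, 35.2 and 41.1 in YKO and 16.9 to 37.1 (median 25.8) in OKO. It was the single member of the pathway at an unadjusted p under 0.05 in OKO vs YKO, with a log2 fold change of -0.47 (SE 0.22, adjusted p = 0.294). Ercc2 (XPD) was at 21.8, 23.8, 23.5 and 23.0 CPM in YWT, 24.5, 30.6, 27.8 and 19.99 in OWT, 17.1, 18.1, 20.7 and 25.9 in YKO and 11.8 to 23.4 (median 20.4) in OKO. Its log2 fold change in OKO vs OWT was -0.43 (SE 0.19, adjusted p = 0.592), and 42.7% of its exon length is shared with other genes. Xpa, Ercc1 and Ercc5, which verify the lesion and cut beside it, had log2 fold changes of -0.40 to -0.16 in OKO vs YKO.

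Both mismatch repair members had higher values in YKO than YWT and lower values in OKO than YKO, but in OWT vs YWT Msh6 had a log2 fold change of -0.15 and Pms2 of 0.07. Msh6 (chr17:87975062-87990892, plus strand) was at 227, 160, 203 and 166 CPM in YWT, 182, 206, 163 and 130 in OWT, 265, 187, 263 and 246 in YKO, and 82.4 to 193 (median 153) in OKO. YKO2 overlapped the WT libraries, OKO1 and OKO3 were the lowest of all, and the log2 fold change in OKO vs YKO was -0.70 (SE 0.22, adjusted p = 0.118). Pms2, the endonuclease subunit, was at 32.8, 27.7, 28.9 and 18.3 CPM in YWT, 26.7, 32.6, 27.8 and 25.6 in OWT, 43.9, 30.0, 37.8 and 35.7 in YKO and 17.0 to 33.8 (median 28.5) in OKO. Its log2 fold change was 0.45 (SE 0.23) in YKO vs YWT and -0.48 (SE 0.20, adjusted p = 0.238) in OKO vs YKO.

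End-joining members went in different directions. Xrcc5 (chr1:72307421-72394952, plus strand) was at 73.1, 62.6, 54.8 and 39.8 CPM in YWT, 55.8, 58.8, 68.5 and 54.8 in OWT, 91.9, 52.5, 79.9 and 89.9 in YKO, and 25.9 to 78.8 (median 45.2) in OKO. YKO2 lay among the OKO libraries and OKO6 and OKO7 within the YKO range, and the log2 fold change in OKO vs YKO was -0.77 (SE 0.25, adjusted p = 0.125). Its partner Xrcc6 had -0.49 (SE 0.27). Xrcc4, the cofactor of the ligase, was the 1 member lower in YKO at an unadjusted p under 0.05: it was at 20.2, 15.8, 16.5 and 11.6 CPM in YWT, 15.1, 11.7, 14.3 and 17.5 in OWT, 9.16, 10.99, 10.99 and 14.6 in YKO and 9.99 to 16.2 (median 11.4) in OKO. Its log2 fold change was -0.48 (SE 0.23) in YKO vs YWT and 0.04 (SE 0.20) in OKO vs YKO, so knockout libraries of both ages had similar values.

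Prkdc (chr16:15637866-15842235, plus strand), the DNA-dependent kinase, was at 55.9, 39.2, 48.1 and 38.4 CPM in YWT, 35.1, 36.0, 35.7 and 20.1 in OWT, 50.7, 36.0, 31.05 and 43.9 in YKO and 22.2 to 46.0 (median 32.0) in OKO. All OWT libraries were below all YWT libraries, by a small gap, and the log2 fold change was -0.52 (SE 0.25). Lig4 had -0.74 (SE 0.41) in the same comparison at 0.671 to 5.10 CPM over all libraries. Trp53bp1, which shields ends from resection, varied least in the pathway, between -0.03 and 0.11 in all 4 comparisons.

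Among recombination genes, Brca2 (chr5:150522630-150570329, plus strand), the loader of the recombinase, separated old from young WT. It was at 43.0, 33.5, 33.5 and 29.5 CPM in YWT, 21.1, 19.4, 26.4 and 16.6 in OWT, 41.1, 24.0, 33.9 and 38.8 in YKO, and 10.9 to 36.0 (median 22.1) in OKO. No OWT library reached the lowest YWT library, and the log2 fold change was -0.74 (SE 0.27, adjusted p = 0.905) in OWT vs YWT and -0.58 (SE 0.24, adjusted p = 0.232) in OKO vs YKO. Brca1 (chr11:101488764-101551955, minus strand), which acts before it at resected ends, had the largest difference of the pathway in OKO vs YKO, -0.79 (SE 0.32, adjusted p = 0.232), with 5.08 to 27.1 CPM in OKO and 22.2 to 32.4 in YKO. Palb2, which links BRCA1 and BRCA2, was at 19.004, 13.0, 15.9 and 15.2 CPM in YWT, 13.6, 16.5, 16.2 and 9.52 in OWT, 18.2, 19.2, 20.7 and 20.3 in YKO and 9.95 to 21.1 (median 13.8) in OKO. The YKO libraries were tightly grouped at its upper end, OKO2 above them and OKO7 among them.

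Mre11a, the nuclease of the MRN complex, was at 63.0, 46.4, 63.9 and 43.4 CPM in YWT, 60.0, 57.9, 50.3 and 42.9 in OWT, 60.6, 46.9, 60.6 and 60.4 in YKO, and 26.9 to 55.6 (median 39.9) in OKO. Its log2 fold change was -0.50 (SE 0.20, adjusted p = 0.215) in OKO vs YKO and -0.38 (SE 0.20, adjusted p = 0.592) in OKO vs OWT. The other subunits, Rad50 and Nbn, had -0.39 and -0.36 in OKO vs YKO. Rad54l, a motor protein of strand exchange, had -0.48 (SE 0.23) there, and 15.4% of its exon length is shared with another gene. Rad51c, at 0.667 to 4.48 CPM, had the widest errors of the list, an SE of 0.41 or more in every comparison.

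Among the Fanconi genes, Fanca (chr8:123268300-123318576, minus strand), a subunit of the core complex, was at 44.7, 39.4, 29.4 and 24.1 CPM in YWT, 24.2, 30.5, 30.2 and 17.0 in OWT, 69.1, 46.6, 59.4 and 48.9 in YKO, and 13.8 to 47.5 (median 23.6) in OKO. All YKO libraries were above all WT libraries, and only OKO2 and OKO7 exceeded 40 CPM in OKO. Its log2 fold change was 0.70 (SE 0.33) in YKO vs YWT and -1.02 (SE 0.28, adjusted p = 0.0742) in OKO vs YKO, and 10.5% of its exon length is shared with Zfp276. Fancd2, which is modified by the core complex at crosslinks, had 0.71 (SE 0.35) and -1.01 (SE 0.30, adjusted p = 0.0983) in these comparisons, and its partner Fanci 0.40 (SE 0.31) and -0.71 (SE 0.27, adjusted p = 0.200).

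Fancb, another core-complex subunit, had the lowest log2 fold change of the pathway in OWT vs YWT, -0.67 (SE 0.36). It was at 10.97, 8.11, 10.1 and 4.83 CPM in YWT, 5.15, 4.88, 6.11 and 5.24 in OWT, 7.19, 6.28, 10.3 and 8.74 in YKO and 2.70 to 9.49 (median 5.80) in OKO. YWT4 lay below every OWT library. Fancg was at 33.5, 38.8, 36.3 and 33.9 CPM in YWT, 33.7, 44.005, 29.0 and 27.8 in OWT, 43.9, 37.2, 41.3 and 37.9 in YKO and 19.99 to 44.1 (median 24.3) in OKO. Only OKO4 and OKO5 reached the YKO range for this gene, and its log2 fold change there was -0.48 (SE 0.20). Fancm, a translocase, had -0.24 (SE 0.22).

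Among the kinases, Chek1 (chr9:36708482-36727065, minus strand), the effector kinase of the replication checkpoint, showed a low level in old libraries of both genotypes. It was at 29.2, 25.1, 26.4 and 21.6 CPM in YWT, 11.3, 12.3, 19.7 and 16.2 in OWT, 38.3, 21.0, 24.2 and 28.4 in YKO, and 5.38 to 25.5 (median 11.6) in OKO. OWT and YWT did not overlap, and OKO2 and OKO7 lay within the YKO range. The log2 fold change was -0.78 (SE 0.38) in OWT vs YWT and -1.02 (SE 0.32, adjusted p = 0.124) in OKO vs YKO. Atr (chr9:95857597-95951781, plus strand), the kinase that activates it at stalled forks, was at 69.8, 48.5, 61.0 and 44.6 CPM in YWT, 36.1, 27.0, 46.6 and 31.1 in OWT, 70.2, 53.5, 58.5 and 62.0 in YKO and 17.2 to 52.9 (median 42.3) in OKO. All OKO libraries lay below all YKO libraries, if narrowly for OKO2, with a log2 fold change of -0.70 (SE 0.23, adjusted p = 0.136), and the OWT vs YWT value was -0.67 (SE 0.27, adjusted p = 0.996).

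The break-signalling pair ATM and CHK2 differed from each other. Atm was at 37.8, 24.8, 49.9 and 31.2 CPM in YWT, 26.1, 23.8, 28.6 and 17.1 in OWT, 37.8, 35.9, 24.4 and 33.8 in YKO and 16.2 to 43.9 (median 39.6) in OKO. Its OKO libraries fell apart, OKO1 to OKO4 at 39.6 CPM or more and OKO5 to OKO7 at 25.8 or less, and its log2 fold change in OKO vs YKO was -0.03 (SE 0.27). Chek2 was at 43.99, 36.5, 46.7 and 51.1 CPM in YWT, 37.98, 48.0, 35.1 and 29.4 in OWT, 73.5, 39.3, 62.9 and 48.9 in YKO and 19.7 to 58.8 (median 43.7) in OKO, with a log2 fold change of -0.48 (SE 0.25, adjusted p = 0.346) there.

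**Figure D3:**
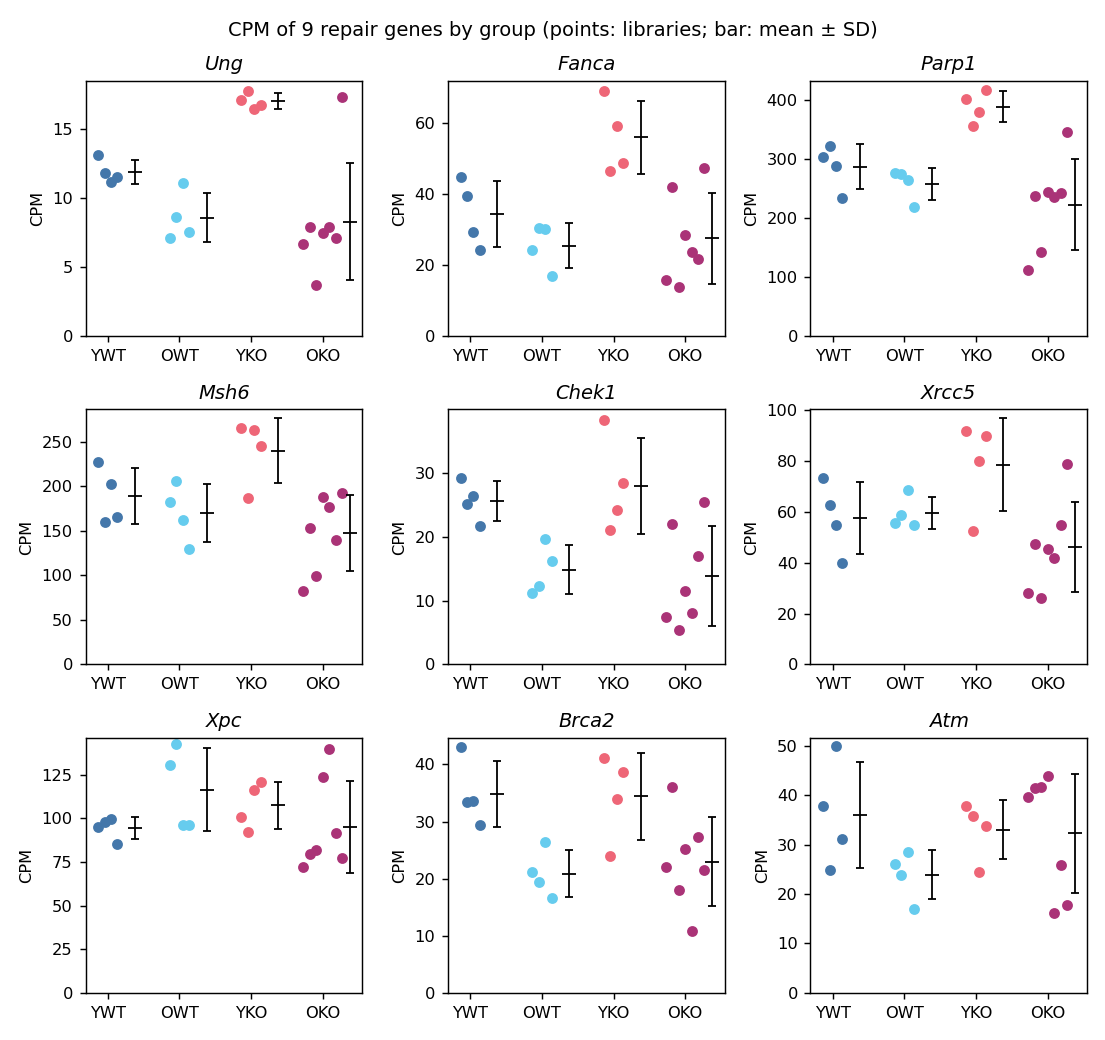
CPM of 9 of the genes in each library (points) by group, with the mean and SD as bars and axes that start at 0. Ung, Fanca and Parp1 are higher in all 4 YKO libraries than in all WT libraries, and the 7 OKO libraries spread widely, from 3.70 to 17.3 CPM for Ung.

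The low values in OKO were unevenly spread over its libraries. OKO1 was the lowest of all 19 libraries for 21 members and OKO3 for 8. In OKO1 35 members lay below every YKO library, in OKO3 32, in OKO2 24, in OKO4, OKO5 and OKO6 19 to 27, and in OKO7 14. Among expressed genes the same held for 68.9% in OKO1, 54.9% in OKO3 and 45% in OKO2, and for 22.5% to 30.3% in the other 4 libraries, so in OKO5 and OKO6 the members' 21 and 27 of 44 stood further from the background than in OKO1.

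These shares rest on the scaling. The summed level of the 44 genes was 1948 to 2587 CPM in YWT, 1796 to 2402 in OWT, 2290 to 2949 in YKO and 1238 (OKO1) to 2425 (OKO7) in OKO. As a share of all counts, with no scaling factor, it was 0.225% in OKO1, 0.245% in OKO2, 0.205% in OKO3, 0.227% in OKO4 and 0.182% to 0.195% in OKO5 to OKO7, beside 0.219% to 0.268% in YKO. OKO3 and OKO5 to OKO7 thus lay below every YKO library on this scale and OKO1, OKO2 and OKO4 within the YKO range. With library totals alone in place of TMM, 31 members rather than 41 were lower in OKO vs YKO (median -0.22) and expressed genes had a median of 0.08. Under either scaling the members' median lay 0.30 below that of expressed genes. Since a scaling factor shifts both nearly alike, this sameness is no test of the difference.

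Outside OKO vs OWT, markers of dividing cells differed in the same directions as most members. Between OKO and OWT, 33 members and 9 of 10 S phase markers were lower in OKO, but 6 of 10 mitosis markers were higher (median 0.05). Old libraries of both genotypes had lower values than young ones for all 10 mitosis markers (medians -0.57 in WT and -1.03 in knockout). The same 10 were higher in YKO than in YWT (median 0.46). All 10 S phase markers were lower in OWT than YWT, higher in YKO than YWT and lower in OKO than YKO (medians -0.33, 0.47 and -0.97), and none was called. Their summed level was 2035 to 2962 CPM in YWT, 1502 to 2302 in OWT, 2474 to 3754 in YKO and 544 to 3086 in OKO, lowest in OKO1 and OKO3 and highest in OKO7. The 10 mitosis markers summed to 493 to 953, 275 to 709, 669 to 1144 and 86.9 to 1034 CPM in these groups, in the same order. Erythroid markers (6 genes) summed to 489 to 1952 CPM in YWT, 93.2 to 916 in OWT, 1353 to 3847 in YKO and 28.3 to 2509 in OKO, and B cell markers (8 genes) to 220 to 659, 64.2 to 209, 197 to 1529 and 27.5 to 196. Granulocyte markers (6 genes) summed to 257 to 469 CPM in OWT, above all YWT libraries (61.2 to 192), to 6.11 to 224 in YKO and to 28.5 to 257 in OKO. T cell markers (6 genes) summed to 16.7 to 26.0 CPM in YWT, 16.5 to 26.7 in OWT, 24.8 to 113 in YKO and 8.33 to 41.03 in OKO. Within YKO, B cell sums were 833 and 1529 CPM in YKO1 and YKO2 and 249 and 197 in YKO3 and YKO4. T cell sums were 113 and 78.3 against 32.2 and 24.8, and granulocyte sums 224 and 198 against 6.11 and 55.5. Erythroid sums went the other way, 3313 and 1353 against 3847 and 3618. Megakaryocyte markers (5 genes) overlapped in all groups (209 to 893 CPM). Of all these markers only Cd8a, in 1 YWT and 1 OWT library, was at 0. In bulk RNA a smaller share of such cells and less RNA per cell cannot be told apart, and the part of these markers in the members' values was not tested.

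**Figure D4:**
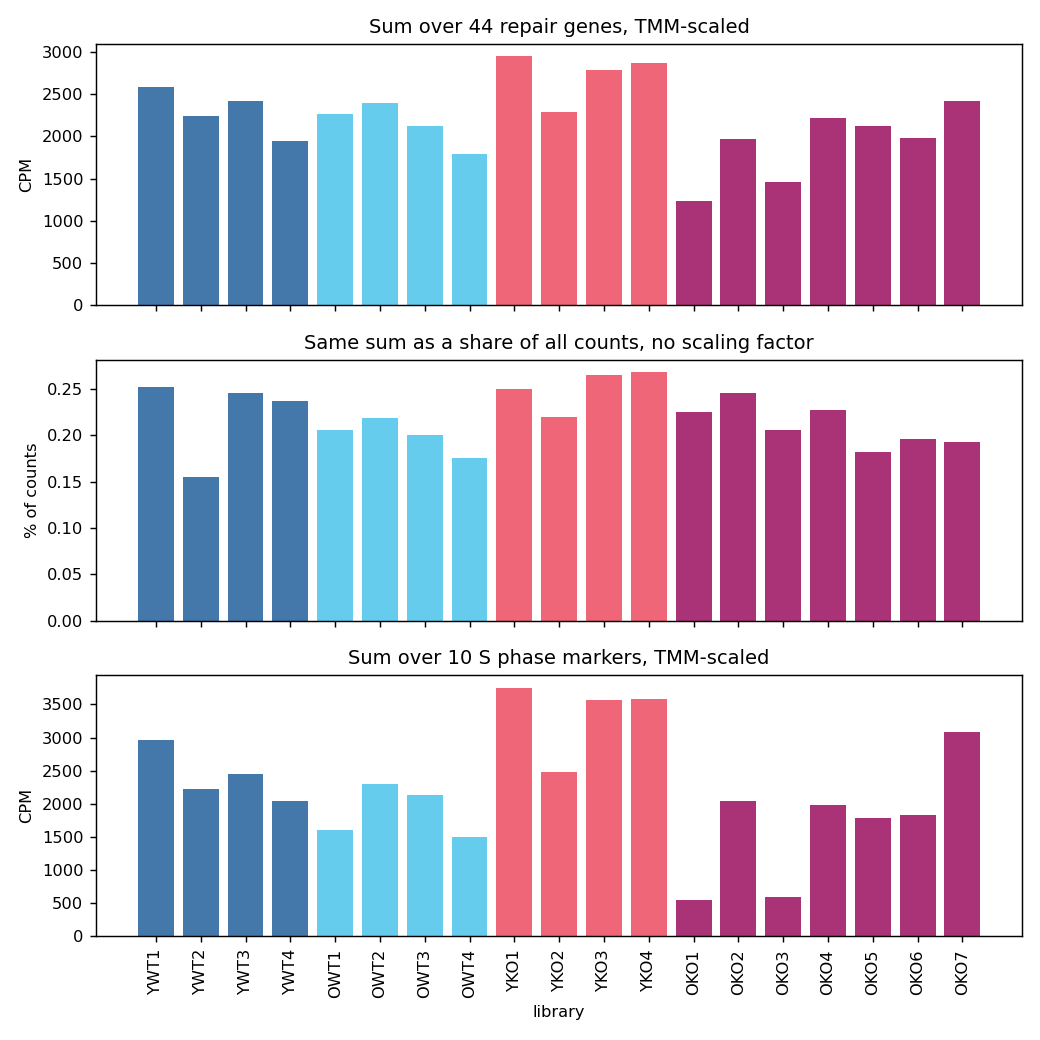
Bars by library of the summed CPM of the 44 repair genes (top), the same sum as a percent of all counts with no scaling factor (middle) and the summed CPM of 10 S phase markers (bottom). OKO1 and OKO3 are lowest in the top and bottom panels but not in the middle one, where OKO1 stands at 0.225%.

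With other settings some members passed in OKO vs YKO, all of them lower in OKO. DESeq2 called 7 members (15.9%): Ung, Neil3, Parp1, Msh6, Xrcc5, Fanca and Fancd2, with log2 fold changes from -0.99 to -0.66 and adjusted p from 0.00799 to 0.0482, beside 2.14% of tested genes called lower. The edgeR test called 2 members with RLE factors (0.935% of genes lower), 3 with upper-quartile factors (1.09%), 1 with library totals (0.608%), 2 with no filter on low counts (0.538%) and 4 of 42 with only genes of at least 5 CPM kept (3.17%). Without OKO7 edgeR called 8 members (3.25% of genes lower) and without OKO2 it called 3 (0.715%), while leaving out any other single library gave 0. Within the libraries that lack the IB15 prefix (OKO1 to OKO3 against YKO) 19 members were called, 43.2% of the list against 11.6% of genes lower. With OKO4 to OKO7 alone 0 members were called and 37 were lower, with a median of -0.24 beside 0.02 for expressed genes. The distance of the members from expressed genes was therefore -0.27 with either set of OKO libraries, while the number called ranged from 0 to 19. Both sets were compared with the same YKO libraries, so the likeness of these distances is no independent check. OKO4 to OKO7 all bear the IB15 prefix and no YKO library does, so age and prefix cannot be told apart in that comparison.

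**Figure D5:**
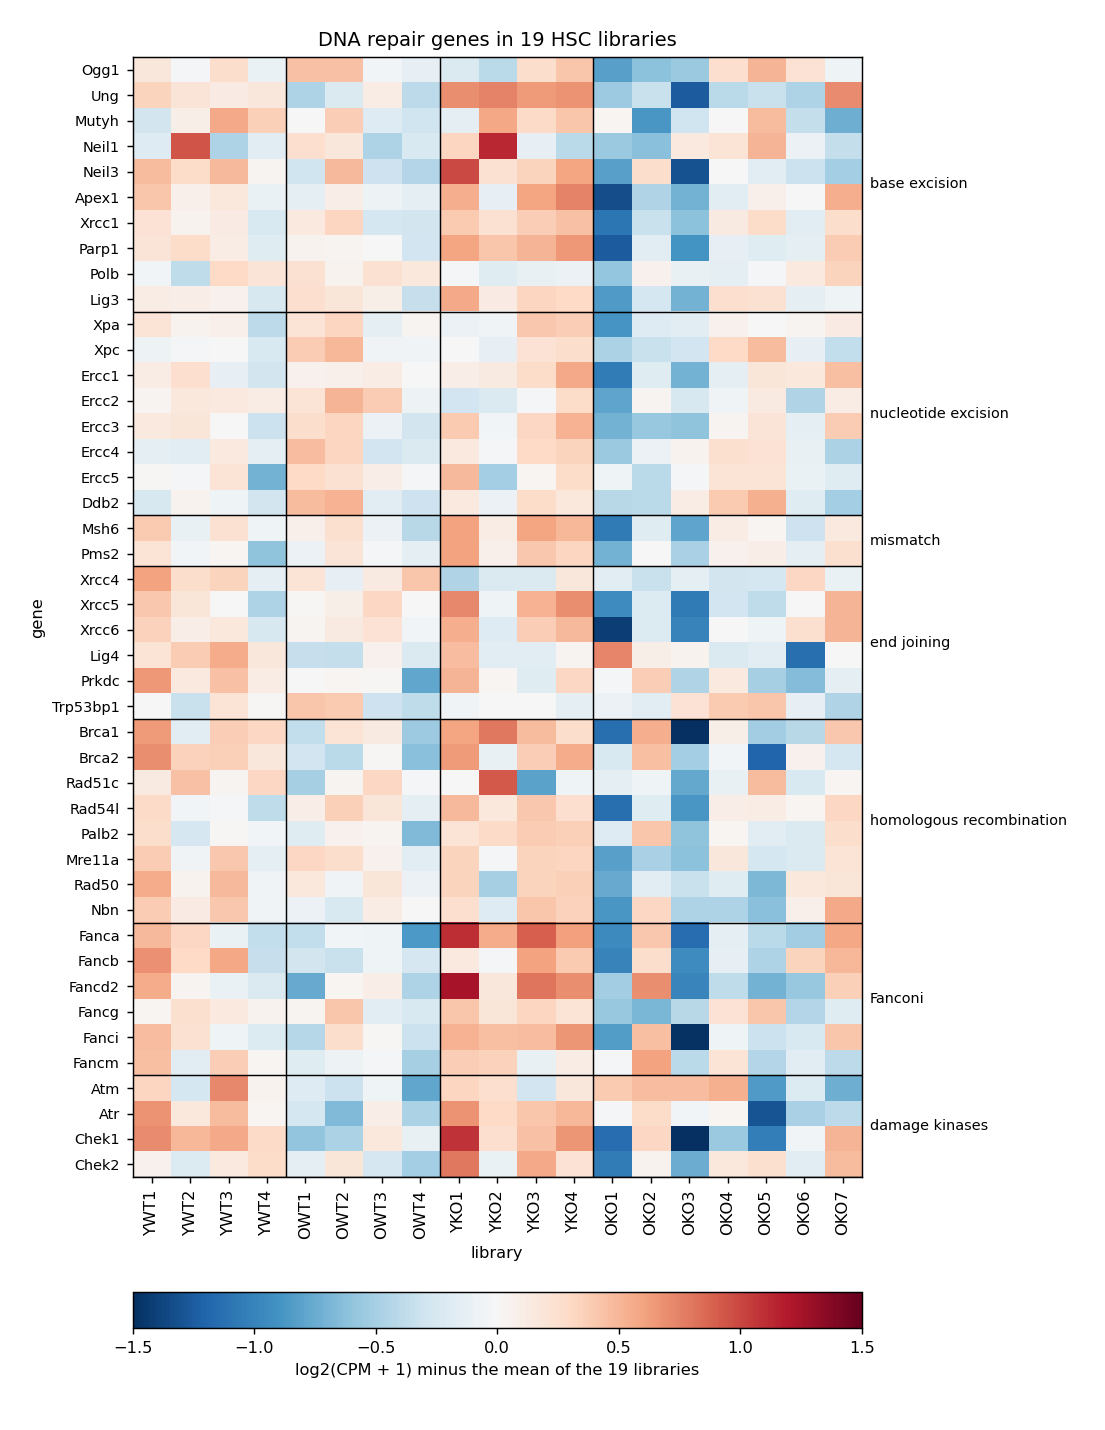
log2(CPM + 1) of the 44 genes in 19 libraries, each gene less its mean over the libraries, with pathways in rows and groups in columns (blue low, red high, colours ending at 1.5 either way). OKO1 and OKO3 hold the lowest value of all libraries for 21 and 8 genes.

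The difference between the age effects of the genotypes, (OKO minus YKO) minus (OWT minus YWT), had a median of -0.41 over the members, with 35 below 0, beside -0.23 for expressed genes, of which 74.5% were below 0. No member was called, as no gene was (0%), by edgeR, and 1 member, Xrcc5, was below 0 at an unadjusted p under 0.05 (-0.82, SE 0.38, adjusted p = 0.811) against 1.22% of tested genes. DESeq2 called 7 genes and no member. All 8 nucleotide excision genes had values from -0.54 to -0.26, since each was higher in OWT than YWT and lower in OKO than YKO. Atm (0.56) and Lig4 (0.64) had the largest values above 0. The members' median moved with the setting. It was -0.06 with library totals alone, with 25 members below 0 and expressed genes at 0.07. With the title prefix as a covariate it was -0.17, beside -0.05 for expressed genes. All OWT libraries but only some OKO libraries bear the IB15 prefix, so the prefix enters this difference. The age effect is thus not shown to differ between genotypes for any repair gene.

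Of 66 further repair genes in the same pathways, 60 were lower in OKO vs YKO with a median of -0.43, beside 65.8% of expressed genes lower, and 2 were called lower and 1 higher, beside 0.692% and 0.597% of tested genes. Xrcc2 (chr5:25689812-25705825), a recombinase paralog, fell from 26.6 ± 3.47 CPM in YKO (n = 4) to 13.6 ± 4.39 in OKO (n = 7), a log2 fold change of -0.97 (SE 0.21, adjusted p = 0.0219), and its groups did not overlap. Neil2 (chr14:63182443-63193856), a glycosylase for oxidised bases, rose from 1.11 ± 0.333 to 3.51 ± 1.32 CPM (1.64, SE 0.37, adjusted p = 0.0304), with OKO7 alone among the YKO values. It had only 13, 56, 58 and 87 counts in the YKO libraries, and both means lie below the 5 CPM that defines expressed genes. All tested genes had a median of 0.23 in OKO vs YKO, beside -0.18 for expressed genes. In OWT vs YWT and YKO vs YWT 0 of the 66 were called (45 lower by value beside 40.8% of expressed genes, and 52 higher beside 53.2%), and in OKO vs OWT 1 was.

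That gene was Tdg (chr10:82629828-82650799), the thymine glycosylase that takes part in base excision and in removal of methylated cytosine. It was at 62.1, 55.3, 42.4 and 31.6 CPM in YWT, 35.8, 52.9, 40.2 and 29.4 in OWT, 37.95, 23.8, 34.9 and 31.8 in YKO and 8.14 to 26.7 in OKO, and its log2 fold change was -1.4998 (SE 0.27, adjusted p = 0.0411) in OKO vs OWT and -1.20 (SE 0.27, adjusted p = 0.0275) in OKO vs YKO. Reads of Tdg can be counted on its processed pseudogene Gm9855 (chr10:42054113-42055306), so its own value is uncertain. Gm9855 took 3.59% to 5.75% of the summed CPM of the pair in all 8 WT libraries and 31.4% to 45.8% in all 11 libraries labelled knockout, YKO1 and YKO2 included. Neither the assignment of reads within the pair nor the cause of this split was tested. The sum itself was 32.8 to 65.9 CPM in YWT, 31.05 to 55.7 in OWT, 40.4 to 67.3 in YKO and 12.7 to 43.98 in OKO, so YKO overlapped YWT. Tdg lies on the same chromosome as Gadd45b (chr10:80930073-80932204).

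RefSeq promoters (GRCm38.p6) were at hand for 36 of the 44 members. In the 250 bases before the start, CCAAT, the letters of the NF-Y type motif, was present on either strand in 19 of 36 members (52.8%) against 34.5% of 27025 promoters. TTTNNCGC, of the E2F type, was present in 5 (13.9%) against 4.39%, and TTTGAA, of the CHR type, in 1 (2.78%) against 16.3%. The 27025 promoters were not limited to expressed genes or matched in base composition, so these differences need not concern repair genes. Of the members lower in OKO vs YKO at an unadjusted p under 0.05, 9 of 18 with a promoter held CCAAT and 2 held TTTNNCGC, and of the other members 10 and 3 of 18. The 160 bases before the start are shown for 4 of the former, from different pathways, where no annotated exon overlaps these bases, with CCAAT or its reverse complement in capitals.
Fanca (chr8:123318577-123318736, minus strand): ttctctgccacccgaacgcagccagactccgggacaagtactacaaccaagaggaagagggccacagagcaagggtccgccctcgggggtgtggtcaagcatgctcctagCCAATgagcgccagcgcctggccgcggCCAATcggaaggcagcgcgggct
Msh6 (chr17:87974890-87975049, plus strand): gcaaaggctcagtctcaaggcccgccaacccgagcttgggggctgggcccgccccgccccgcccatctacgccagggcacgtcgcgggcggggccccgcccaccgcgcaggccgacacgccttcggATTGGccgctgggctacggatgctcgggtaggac
Brca1 (chr11:101551956-101552115, minus strand): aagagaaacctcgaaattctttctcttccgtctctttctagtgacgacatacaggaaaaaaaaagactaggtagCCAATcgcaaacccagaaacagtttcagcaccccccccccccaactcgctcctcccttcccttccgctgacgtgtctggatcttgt
Parp1 (chr1:180568731-180568890, plus strand): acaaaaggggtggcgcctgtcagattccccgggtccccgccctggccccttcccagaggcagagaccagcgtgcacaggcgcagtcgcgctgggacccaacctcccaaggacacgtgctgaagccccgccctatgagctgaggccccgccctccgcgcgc
Fanca holds CCAAT at 2 places, starting 50 and 23 bases before the start, Msh6 at 1 on the other strand and Brca1 at 1, and Parp1 holds none in this window.

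The genes whose levels were most like those of Brca1 over the 19 libraries, out of 11304 genes whose log2 CPM averaged 3 or more, were Arap3 (Spearman rho 0.92), Setdb1 (0.91) and Wdhd1 (0.91). The 19 points share groups, depth and scaling factors, so these values only describe these libraries.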

How the data were processed

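RNA-seq was available for 19 libraries of sorted mouse HSCs (SMART-Seq v4). The methylation samples of the series were not analysed here. The authors trimmed reads with Trim Galore 0.4.3 and cutadapt, aligned them to mm10 with STAR on a GENCODE annotation, and deposited raw read counts per gene from featureCounts. Aligner and counter versions and the strand setting are not given in the sources used here. Genes were tested with edgeR 4.0.16 in R 4.3.3 (filterByExpr, TMM factors, quasi-likelihood, 1 fit over 19 libraries with 4 group means, Benjamini-Hochberg adjustment over 33690 genes). CPM values are TMM-scaled, SEs are the log2 fold change over the square root of F, and thresholds (adjusted p under 0.05, fold over 1.5) follow the study. DESeq2 1.42.0, other factors and filters, the title prefix as covariate, and libraries left out were alternatives. Positions and exon lengths are those of GENCODE M21 (mm10) and promoters those of RefSeq. The test was tried on simulated counts first. The members and lists were chosen with earlier results of these data known. The per-library rule named, in each pathway and comparison, the member with the smallest unadjusted p, and Gadd45b as a check. Neil3, Parp1, Fancd2, Brca1 and other members described outside it were picked after their values were seen. Replicate spread and, for the least counted members, counting error limit the precision.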

Additional observations from a re-analysis of the deposited data

Results flagged for a closer look

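In 88 combinations of a named member, or the members' sum, with a group, 5 held a library set apart from the rest of its group by Dixon's criterion, beside 4.4 that chance gives at 1 in 20. Ung was at 17.3 CPM in OKO7, where the next OKO library had 7.88. Xrcc4 was at 16.2 CPM in OKO6, next to 11.9. Prkdc was at 20.1 CPM in OWT4, with the nearest OWT library at 35.1. Ercc4 was at 55.5 CPM in YWT3, next to 45.1, and Mre11a at 46.9 CPM in YKO2, with the nearest YKO library at 60.4.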

How the results depend on the processing

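Outside OKO vs YKO no member was called under any setting run. In OKO vs YKO the members called, all lower, were 7 with DESeq2, 2 with RLE factors, 3 with upper-quartile factors, 1 with library totals alone, 2 with no filter on low counts, 4 with a mean CPM of at least 5, 19 with the title prefix as covariate (13.4%) or with OKO1 to OKO3 alone, and 0 to 8 with single libraries left out.

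Genes called changed more. In OKO vs YKO (434) they were 1941 with DESeq2, 702 with RLE and 1078 with upper-quartile factors, 1502 with a mean CPM of at least 5, 115 with the compared groups alone, 6420 with the prefix covariate, 6285 with OKO1 to OKO3, 244 with OKO4 to OKO7, 21 with YKO3 and YKO4, and 102 (without YKO1) to 1822 (without OKO7) with single libraries left out. In OKO vs OWT (11) they were 73 with DESeq2, 7 with upper-quartile factors, 5 with library totals, 1 with the compared groups, 25 with the prefix covariate, 24 with OKO4 to OKO7, and 1 to 11 with single libraries left out. In YKO vs YWT (9) they were 112 with DESeq2, 16 with RLE and 19 with upper-quartile factors, 5 with library totals, 20 with no filter, 24 with a mean CPM of at least 5, 33 with the compared groups, 34 with the prefix covariate, 2 with YKO3 and YKO4, and 2 to 8 with single libraries left out. In OWT vs YWT (1) they were 109 with DESeq2, 0 with library totals, 8 with no filter, 41 with the compared groups, 21 with the prefix covariate, and 0 to 1 with single libraries left out. In the interaction (0) they were 7 with DESeq2 and 0 to 1 with single libraries left out. Library totals, OKO4 to OKO7 alone and YKO3 with YKO4 were chosen after seeing the data. The causes were not tested.

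The sign of some named members turned. Xpc in OWT vs YWT was -0.18 with the prefix covariate. In OKO vs OWT, Ogg1 was 0.0427 with the prefix covariate and 0.0709 with OKO4 to OKO7, Msh6 0.0176 with library totals, 0.0134 with a mean CPM of at least 5, 0.0354 with the covariate and 0.0645 with OKO4 to OKO7, and Fancg 0.0265, 0.00936, 0.00639 and 0.0347 in the same order.

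With the replicate number as a block, 6 members (3.46% of genes called lower) and 1774 genes were called in OKO vs YKO, 9 genes in OWT vs YWT, 25 in YKO vs YWT and 0 in OKO vs OWT. Libraries of the same number correlated between -0.47 and 0.30 in their deviations from the group means and not every one correlated best with its own number, so they share only a number.

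Rad51c and Lig4, the members of lowest level, had an SE of 0.36 or more in each comparison. The part of depth and of spread between libraries in this was not tested.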
